A study of Mus musculus with 6 samples.

Results

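Genes for the proteins stored in neutrophil granules were described in cultured mouse bone marrow cells, some of them without the cryptochrome genes Cry1 and Cry2. The 10 genes were taken by symbol, from all probe sets of the array that list a single gene symbol. That rule and the split by granule class use no measured value, but were set with earlier results of these data known. The primary class held Mpo, Elane, Prtn3 and Ctsg, the secondary class Ltf, Lcn2, Ngp and Camp, and the tertiary class Mmp8 and Mmp9. They are 10 of 18193 genes with such a probe set, and 11 probe sets measured them, with 2 for Mmp9 and 1 for each other gene. Bone marrow cells of C57BL/6 mice, all grown with interleukin-7 and fetal bovine serum, had been profiled on 6 oligonucleotide arrays. The double knockout group, DKO, carried the Cry1 and Cry2 knockout and had 3 arrays, and the wild type group, WT, had 3 arrays. With 3 arrays a group, their small number sets how precise any difference can be. No age is stated, nor whether arrays of a group stand for separate animals or cultures, so a p-value here covers the spread between 3 arrays a group and that spread may be technical. Triplets of values below follow the replicate number, 1 to 3.

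Neutrophil granules are made in sequence as the cell matures in the marrow, and each wave holds the proteins that are being transcribed at that stage. Primary, or azurophil, granules form in promyelocytes and hold myeloperoxidase and the serine proteases. Secondary, or specific, granules form in myelocytes and metamyelocytes and hold lactoferrin and other antimicrobial proteins. Tertiary, or gelatinase, granules form in band cells and carry gelatinase B, the product of Mmp9. The class of each gene, that of Mmp8 included, was given by the selection rule, and the granule that holds each protein was not examined. The messages of granule genes are abundant in precursors and decline in mature cells, whereas the proteins persist. Interleukin-7, which all cultures received, sustains early B lymphocytes.

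Upstream sequence was examined because the 10 genes had similar profiles over the arrays. RefSeq promoters were matched by symbol for 9 of the 10 genes, all but Mmp9, and the 250 bases before each start were searched on both strands for 4 motifs. The E-box CACGTG, the element on which cryptochromes repress CLOCK and BMAL1, was in 0 of the 9, and in 6.02% of 32851 promoters of the table. GAGGAA, the core letters bound by PU.1, was in 7 of the 9, namely Mpo, Elane, Prtn3, Ctsg, Ltf, Lcn2 and Mmp8, and in 23.3% of all promoters. TTNNGNAA, a loose form of the C/EBP site, was in Ltf, Lcn2, Ngp and Mmp8 and in 36.8% of all promoters, and TGTGGT, the core letters bound by RUNX factors, was in Ctsg and in 14.0% of all. The motifs can share bases, and a match describes letters and not a site in use. The 200 bases before the start of Elane and Prtn3, which are next to each other among the protein-coding genes of chromosome 10, show GAGGAA followed by the letters gt in both. Those of Ltf and Ngp show the C/EBP letters, found in 3 of the 4 secondary genes, with TTCCTC in Ltf as GAGGAA on the other strand. Capitals mark the motif matches.
Elane (GRCm38.p6, chr10:79886112-79886311, + strand): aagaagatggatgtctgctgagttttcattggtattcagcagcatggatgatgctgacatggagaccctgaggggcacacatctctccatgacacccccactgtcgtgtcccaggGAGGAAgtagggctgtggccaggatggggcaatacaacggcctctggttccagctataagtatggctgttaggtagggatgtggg
Prtn3 (GRCm38.p6, chr10:79879467-79879666, + strand): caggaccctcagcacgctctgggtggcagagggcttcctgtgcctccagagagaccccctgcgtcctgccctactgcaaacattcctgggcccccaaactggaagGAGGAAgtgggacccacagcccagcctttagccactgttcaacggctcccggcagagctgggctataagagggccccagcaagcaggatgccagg
Ltf (GRCm38.p6, chr9:111019092-111019291, + strand): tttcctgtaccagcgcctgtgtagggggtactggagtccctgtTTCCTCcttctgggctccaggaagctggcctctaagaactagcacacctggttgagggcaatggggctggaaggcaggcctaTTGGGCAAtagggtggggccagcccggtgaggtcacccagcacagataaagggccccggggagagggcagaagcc
Ngp (GRCm38.p6, chr9:110419608-110419807, + strand): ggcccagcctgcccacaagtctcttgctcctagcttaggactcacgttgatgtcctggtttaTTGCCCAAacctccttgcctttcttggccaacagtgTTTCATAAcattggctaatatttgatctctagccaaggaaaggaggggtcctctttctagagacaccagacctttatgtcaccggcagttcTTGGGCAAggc

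In measures of quality WT 2 stood apart from the other arrays, WT and DKO alike. The ratio of 3' to 5' signal of the Actb controls, a measure of RNA integrity, reached 824 on WT 2, where the other arrays had 1.47 to 2.05. The median signal of WT 2 was 115, against 44.0 to 55.3 elsewhere. Some results are therefore also given without WT 2, and values not marked so include it. The probe set of Cry1 read 359 to 545 in DKO and 955 to 1533 in WT, and that of Cry2 read 133 to 178 and 102 to 145. Whether these probe sets lie in the deleted parts was not analysed here, so they do not check the labels. Among B lineage markers the surrogate light chain genes Vpreb1 and Igll1 were bright on every array, at 13707 to 51355 and 14442 to 58291.

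All 10 granule genes had lower mean signal in DKO than in WT, and none passed the test. On the log2 scale the differences ran from -0.64 for Ctsg to -4.26 for Ngp, with a median of -2.22. Over the 27022 tested probe sets the median difference was 0.21, and it was -0.10 with no centring. The number called was 0 of 10, with a limma adjusted p of 0.822 for every gene, against a background of 0.0074% of all tested probe sets called in either direction. A lower mean in DKO was found in 35.1% of all tested probe sets, and in 56.5% when the arrays were not centred on their medians. At an unadjusted p under 0.05, 4 of the 10 (Lcn2, Ngp, Camp and Mmp9) were lower, against 1.31% of all tested probe sets. Mmp9 is counted by the brighter of its probe sets, and the other had an unadjusted p of 0.169 in limma. DKO 1 and DKO 2 were the lowest of the 6 arrays for each of the 10 genes. Taken alone, DKO 1 lay below all WT arrays in 15.9% of all tested probe sets and DKO 2 in 17.2%. The share of probe sets with both as the lowest arrays was not computed. DKO 3 lay within or above the WT range for each gene, so the groups overlapped in all 10, and 0 of 10 had every DKO array below every WT array, against 3.29% of all tested probe sets. Fewer neutrophil precursors in a culture and less RNA per cell cannot be told apart in these bulk samples.

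**Figure D1:**
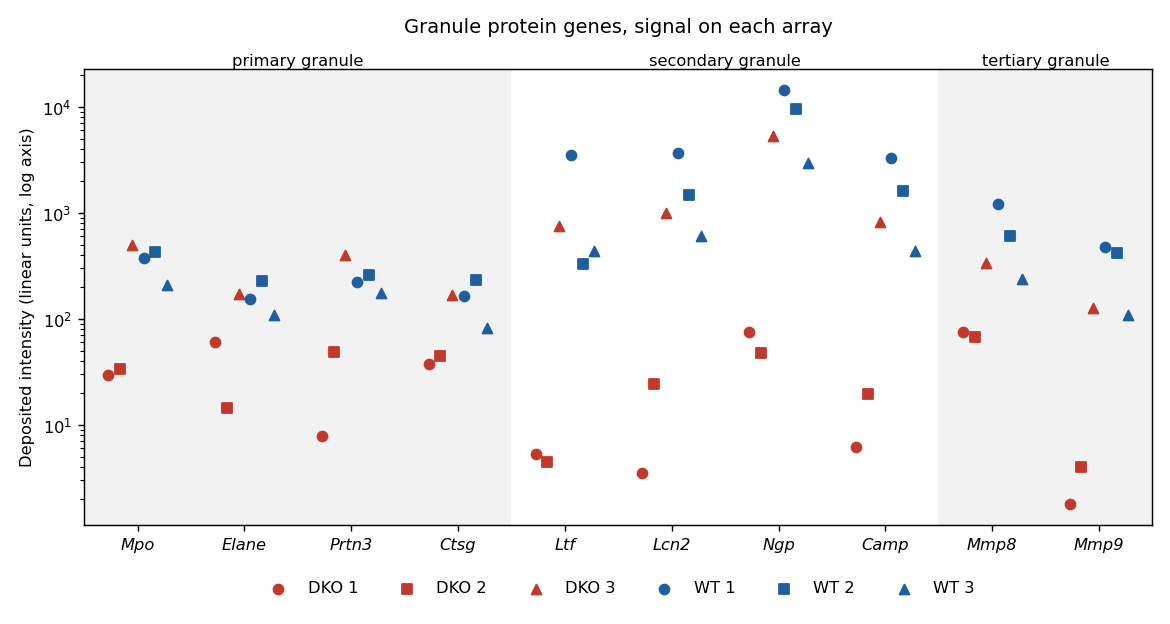
Deposited signal of the 10 granule genes (vertical axis, linear intensity units on a log axis) by gene and granule class, 1 point per array, with DKO in red and WT in blue and the replicate number as the symbol. DKO 1 and DKO 2 are the lowest points for every gene, and DKO 3 lies among or above the WT points.

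The primary granule genes had the smallest differences. Mpo, which encodes the peroxidase that makes hypochlorous acid, read 29.3, 33.8 and 502 on the DKO arrays against 372, 429 and 210 on the WT arrays. DKO 3 was the highest of the 6 arrays and the other DKO arrays lay below every WT array. The log2 means of DKO and WT were 6.88 ± 2.13 and 8.25 ± 0.38 (SD, n = 3 each), which differ by -1.37 ± 0.97 (SE). Prtn3, the gene of proteinase 3, read 7.90, 48.9 and 404 on the DKO arrays against 223, 260 and 177 on the WT arrays. Again DKO 3 was the highest array, and DKO 1 and DKO 2 were the lowest. On the log2 scale DKO minus WT came to -1.12 ± 1.01 (SE).

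Elane, which encodes neutrophil elastase, read 60.7, 14.4 and 170 on the DKO arrays against 155, 225 and 108 on the WT arrays. In the deposited values DKO 3 lay between WT 2 and WT 1, and after centring it was the highest array. The log2 means of DKO and WT were 6.40 ± 1.42 and 7.27 ± 0.21 (SD, n = 3 each), which differ by -0.87 ± 0.67 (SE). Ctsg, the gene of cathepsin G, read 37.7, 45.1 and 169 on the DKO arrays against 163, 233 and 82.2 on the WT arrays. Its DKO arrays were the closest together of the primary class, and DKO 3 lay above WT 1 and below WT 2 in the deposited values. On the log2 scale DKO minus WT came to -0.64 ± 0.56 (SE). After centring, DKO 3 was above every WT array for all 4 primary genes, which held for 34.4% of all tested probe sets, and in the deposited values this was so for 2 of the 4, Mpo and Prtn3. The 3 WT arrays lay within 0.40 to 0.70 of each other on the log2 scale.

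The secondary granule genes had the largest differences and, with Mmp9 taken by its brighter probe set, also the widest spread among WT arrays. The other Mmp9 probe set ranged by 3.79 over the WT arrays on the log2 scale. Ltf, which encodes the iron-binding protein lactoferrin, read 5.32, 4.44 and 756 on the DKO arrays against 3499, 331 and 436 on the WT arrays. DKO 3 lay between WT 1 and the other WT arrays, while DKO 1 and DKO 2 were far below the array median. The log2 means of DKO and WT were 6.28 ± 3.14 and 9.52 ± 2.15 (SD, n = 3 each), which differ by -3.25 ± 1.67 (SE), and by -4.20 without WT 2. Lcn2, the gene of the siderophore-binding lipocalin, read 3.51, 24.5 and 986 on the DKO arrays against 3635, 1472 and 610 on the WT arrays. DKO 3 was between WT 2 and WT 3 in the deposited values. On the log2 scale DKO minus WT came to -3.71 ± 1.51 (SE).

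Ngp, the neutrophilic granule protein gene of the cystatin superfamily, read 74.5, 47.3 and 5338 on the DKO arrays against 14405, 9620 and 2937 on the WT arrays. DKO 1 and DKO 2 were near the array medians, and DKO 3 lay between WT 2 and WT 3 in the deposited values. The log2 means of DKO and WT were 8.45 ± 3.69 and 12.70 ± 1.08 (SD, n = 3 each), which differ by -4.26 ± 1.70 (SE). Camp, the gene of the cathelicidin antimicrobial peptide, read 6.24, 19.4 and 828 on the DKO arrays against 3293, 1615 and 440 on the WT arrays. Its order over the arrays was that of Lcn2, from WT 1 down to DKO 1. On the log2 scale DKO minus WT came to -3.64 ± 1.45 (SE). Camp, Ngp and Ltf lie on chromosome 9 with 8 protein-coding genes between the first pair and 20 between the next. Over the WT arrays the secondary genes ranged by 2.11 to 4.24 on the log2 scale.

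The tertiary granule genes lay between the other classes. Mmp8, which encodes neutrophil collagenase, read 74.4, 67.4 and 337 on the DKO arrays against 1210, 600.4 and 240.1 on the WT arrays. It was the 1 gene of the 10 that stayed above the array median on every array. The log2 means of DKO and WT were 7.27 ± 1.30 and 9.02 ± 1.15 (SD, n = 3 each), which differ by -1.75 ± 0.81 (SE). The brighter probe set of Mmp9, the gene of gelatinase B, read 1.77, 4.02 and 127 on the DKO arrays against 476, 418 and 109 on the WT arrays. DKO 3 exceeded WT 3 and lay below the other WT arrays. On the log2 scale DKO minus WT came to -2.70 ± 0.91 (SE), and its unadjusted p of 0.0204 in limma was the smallest of the 10 genes. The other Mmp9 probe set read 17.7, 13.3 and 75.6 on the DKO arrays against 475, 50.1 and 97.1 on the WT arrays. These differ by -1.47 ± 0.96 (SE), with an unadjusted p of 0.169 in limma. Without WT 2 the brighter and the other probe set differed by -2.76 and -2.41.

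**Figure D2:**
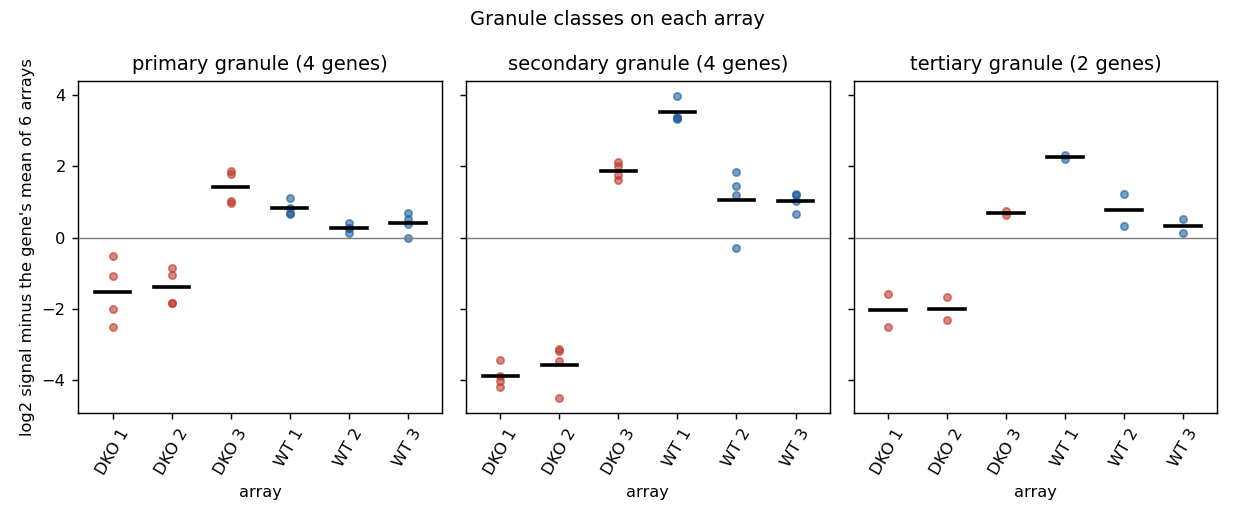
Signal of each granule class on each array, as log2(intensity + 16) after centring minus the mean of that gene over the 6 arrays (vertical axis). Points are genes and black bars are class means, which are -3.88 and -3.56 on DKO 1 and DKO 2 for the secondary class and -1.52 and -1.39 for the primary class.

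Set against the mean of each gene, the classes differed in size and in the place of DKO 3. The class mean of the secondary genes was -3.88, -3.56 and 1.87 on the DKO arrays against 3.51, 1.04 and 1.02 on the WT arrays. That of the primary genes was -1.52, -1.39 and 1.41 on the DKO arrays against 0.83, 0.27 and 0.40 on the WT arrays. That of the tertiary genes was -2.04, -1.99 and 0.69 on the DKO arrays against 2.26, 0.77 and 0.31 on the WT arrays. The median difference between genotypes was -0.99 for the primary, -3.67 for the secondary and -2.22 for the tertiary class. Without WT 2 these medians were -1.14, -4.12 and -2.40. The secondary minus the primary mean, which the centring of an array does not change, was -2.36, -2.18 and 0.46 on the DKO arrays against 2.68, 0.77 and 0.62 on the WT arrays. On DKO 1 and DKO 2 most genes of both classes read below the array median, so this gap depends on how bright each class was on the other arrays and does not measure less of one class than of the other. In this gap and in the secondary and tertiary class means, DKO 3 differed from WT 2 and WT 3 by less than these did from WT 1. In the primary class mean this did not hold, and DKO 3 was the highest array. These are descriptions over 4, 4 and 2 genes, and the difference between classes was not tested.

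The size of each difference depended on the dim values of DKO 1 and DKO 2. On DKO 1, 7 of the 10 genes read below the array median and on DKO 2, 9 did, where on each other array 0 did. Detection calls are not used here, so signals this dim are not shown to be above background. The log2 differences of these genes therefore depend on the 16 units added and are not measured fold changes. With a pseudocount of 1 in place of 16 the class medians were -1.36, -4.39 and -3.00 for primary, secondary and tertiary genes, and with 64 they were -0.59, -2.85 and -1.60. The order of the classes was the same in each of these settings. DKO 3 read higher than WT 3 for all 10 genes, by 0.25 to 1.25 on the log2 scale, which held for 55.3% of all tested probe sets. The SD over DKO arrays exceeded that over WT arrays for 10 of the 10 genes, and the share of all tested probe sets was not computed for the SD. Both counts use the brighter Mmp9 probe set. The other went the opposite way in each, with DKO 3 minus WT 3 at -0.25 and SDs of 1.03 in DKO and 1.90 in WT.

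Without DKO 3 the differences were larger and still did not pass. Ngp then read -6.38 ± 0.74 (SE) with limma adjusted p = 0.195, and Mpo -2.60 ± 0.36 (SE) with limma adjusted p = 0.233. Leaving out 1 array at a time, the class median ran from -1.97 to -0.49 for the primary, from -5.43 to -2.57 for the secondary and from -3.13 to -1.65 for the tertiary genes, and 0 of 10 genes passed each time. Without WT 2 all 10 means were again lower in DKO, where 52.6% of all tested probe sets were and 0.0259% were called in either direction. Without both WT 2 and DKO 3, which leaves 2 arrays a group, 8 of 10 genes passed (all but Elane and Ctsg) with limma adjusted p from 0.00236 to 0.0386, against 4.07% of all tested probe sets. With either array left out alone, 0 of 10 passed. With weights that count the more variable arrays less, 7 of 10 passed, against 3.41% of all tested probe sets. DKO 3 stands apart by the level of these same genes, so neither fit is independent support.

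**Figure D3:**
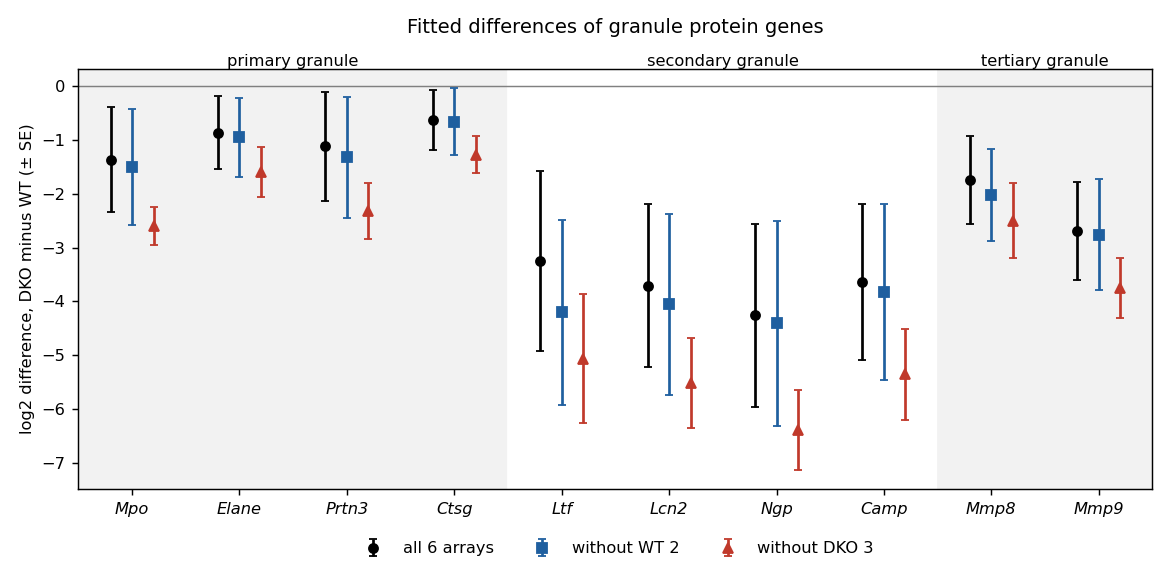
Fitted log2 difference of DKO minus WT for each granule gene (vertical axis, bars are ± 1 standard error) with all 6 arrays, without WT 2 and without DKO 3. All points lie below 0, from -0.64 for Ctsg to -4.26 for Ngp with all 6 arrays, and none passed the test.

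Markers of neutrophils had lower means in DKO, as the granule genes did. Of 11 listed, 7 had a probe set and 6 were tested, all 6 with lower mean signal in DKO, a median difference of -2.45 and 0 called. Their summed intensity was 381, 404 and 18483 on the DKO arrays against 49931, 165670 and 14185 on the WT arrays, and none was at 0. S100a8 and S100a9, the calgranulins of the neutrophil cytosol, were the bulk of these sums. After centring, DKO 3 lay below all WT arrays for 2 of the 6, Stfa2l1 and Itgam, where it did so for 0 of the 10 granule genes. In the deposited values this also held for Cd177, which read 31.6 on DKO 3 against 244, 54.9 and 50.7 on the WT arrays. The share of all tested probe sets with DKO 3 below all WT arrays was not computed. Itgam read 27.0, 49.7 and 40.6 on the DKO arrays against 114, 127 and 48.5 on the WT arrays. Csf3r, the receptor of granulocyte colony-stimulating factor, read 22.2, 13.4 and 172 on the DKO arrays against 319, 191 and 106 on the WT arrays. Cxcr2, a chemokine receptor of mature neutrophils, did not pass the filter on low signal, and read 3.71, 12.3 and 3.07 on the DKO arrays against 114, 39.3 and 19.1 on the WT arrays. Every DKO array read below every WT array, at DKO values not shown to be above background. The part of neutrophil number in the granule differences was not tested.

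Other cell types were compared in the same way. Of the macrophage and monocyte markers, 7 of 9 tested had a lower DKO mean, with a median difference of -0.42 (-1.09 without WT 2) and 0 called, and their summed intensity was 8890 to 18956 in DKO and 11387 to 45507 in WT. Csf1r, the receptor of macrophage colony-stimulating factor, read 1012, 910 and 2703 on the DKO arrays against 7067, 26294 and 1819 on the WT arrays, so DKO 1 and DKO 2 were the lowest. The complement gene C1qb differed by -1.74 (-1.23 without WT 2), and DKO 1 and DKO 2 were again the lowest arrays. The 2 markers with a higher DKO mean were C1qa, at 0.73 (-0.69 without WT 2), and Lyz2, at 0.04 (-0.28 without WT 2). Mast cell and basophil markers, of which 5 of 11 were tested, had higher mean signal in DKO for all 5, a median of 1.06 and 0 called, at sums of 313 to 1635 in DKO and 279 to 962 in WT. The basophil protease gene Mcpt8 differed by 1.51 and the transcription factor gene Gata2 by 1.03. The mast cell carboxypeptidase gene Cpa3 read 382, 417 and 4.81 on the DKO arrays against 81.8, 97.3 and 48.9 on the WT arrays, so DKO 1 and DKO 2 were high where the granule genes were low. Hdc differed by 0.05, and by -0.26 with no centring. Of the markers that did not pass the filter, Tpsb2 read 7.31, 13.1 and 15.6 on the DKO arrays against 20.4, 86.7 and 24.6 on the WT arrays. Every DKO array was thus below every WT array. Ms4a2 read 169, 96.6 and 3.80 on the DKO arrays against 15.5, 14.6 and 8.11 on the WT arrays, highest on DKO 1 and DKO 2. Signals this dim are not shown to be above background. B lineage markers were higher for 6 of 10, with a median of 0.17 and sums of 72024 to 109462 in DKO and 71820 to 137325 in WT, and some of them separated the same arrays as the granule genes. Dntt, the terminal transferase gene of early lymphocytes, read 10162, 10083 and 1079 on the DKO arrays against 1314, 3466 and 495 on the WT arrays, highest on DKO 1 and DKO 2. Ms4a1, the CD20 gene of later B cells, read 88.5, 136 and 5741 on the DKO arrays against 934, 1163 and 5263 on the WT arrays, lowest on DKO 1 and DKO 2. Blnk, a B cell receptor adaptor gene, differed by 1.18 (0.66 without WT 2). Early progenitor markers were higher for 6 of 6 tested, with a median of 0.62, and for 4 of 6 without WT 2, with a median of 0.13. Of these, Gata2 is given above and Meis1, a homeobox gene, differed by 0.77. The stem cell factor receptor Kit read 892, 989 and 86.3 on the DKO arrays against 906, 283 and 160 on the WT arrays. Of the eosinophil and the erythroid markers 2 each were tested, with medians of 0.16 (-0.19 without WT 2) and 0.09. They were Prg2 (-0.12) and Il5ra (0.43) for eosinophils, and Epor (0.16) and Klf1 (0.02) for erythroid cells. None of the markers measured in these lists was at 0 on any array, 0 were called, and their part in the granule differences was not tested.

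**Figure D4:**
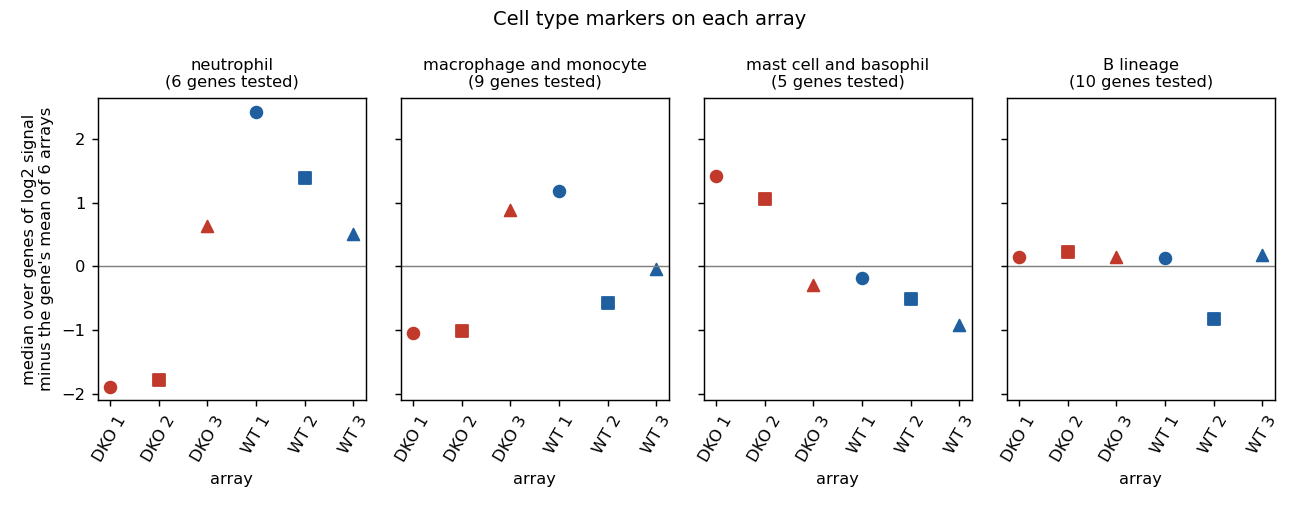
Median over the tested markers of 4 cell types of the log2 signal minus the mean of each gene over the 6 arrays (vertical axis), by array. Neutrophil markers are at -1.89 and -1.78 on DKO 1 and DKO 2 and at 0.63 on DKO 3, and mast cell and basophil markers are at 1.42, 1.05 and -0.29.

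Further genes of the granule pathway had 0 called in each of 7 lists. Other specific granule genes had lower mean signal in DKO for 13 of 18 tested, with a median difference of -0.69, and DKO 1 and DKO 2 each lay below all WT arrays for 13 of them. Among these Wfdc21, a gene of the WAP four-disulfide core family, read 65.8, 60.6 and 451 on the DKO arrays against 1018, 2606 and 378 on the WT arrays, a difference of -2.53. Ceacam10, of the carcinoembryonic antigen family, differed by -1.80. Other azurophil granule genes, most of them lysosomal enzymes that many cell types use, were higher for 8 of 11, with a median of 0.15. Without WT 2 they were lower for 8 of 11, with a median of -0.20, and the alpha-mannosidase Man2b1 differed by 0.52 (0.19 without WT 2) and the protease inhibitor Serpinb1a by 0.54 (0.14 without WT 2). Gelatinase granule and secretory vesicle genes were lower for 7 of 14 (12 of 14 without WT 2), with a median of -0.01. That median was -0.37 without WT 2, -0.32 with no centring and -0.45 under quantile normalization. The formyl peptide receptor Fpr2 differed by -1.74. It read 81.3, 71.3 and 119 on the DKO arrays against 868, 742 and 105 on the WT arrays, so that WT 3 was within the DKO range. Snap23, a membrane fusion protein of the SNARE family, differed by 1.06 (0.24 without WT 2).

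Lists of regulators and of the handling of granule proteins had medians on either side of 0. Transcription factors of granule genes were higher for 13 of 16, with a median of 0.47, and for 8 of 16 without WT 2, with a median of 0.03. Cebpd, a C/EBP factor of late granulocyte stages, read 59.8, 31.0 and 107 on the DKO arrays against 405, 539 and 79.0 on the WT arrays, a difference of -1.57. Irf8, which directs myeloid precursors to the monocyte side and also acts in B cells, differed by 1.51 (0.75 without WT 2). Genes of granule biogenesis, sorting and release were higher for 15 of 21 with a median of 0.64, and for 11 of 21 without WT 2. The small GTPase gene Rab37 differed by 0.82 and the syntaxin gene Stx11 by -0.96. Inhibitors of proteases and gelatinases were lower for 6 of 10, with Stfa2l1, of the stefin family of cysteine protease inhibitors, at -3.14. Genes of the stages of neutrophil maturation, a list that shares Ltf with the secondary class, were lower for 7 of 13, with the chemokine gene Ccl6 at 1.96.

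The direction of several lists depended on the scaling. With no centring of the arrays the median difference was -0.16 for the other azurophil genes, -0.15 for B lineage, -0.16 for eosinophil and -0.22 for erythroid markers, each opposite in sign to the value with centring. Under quantile normalization the azurophil median was -0.02. Under the same scalings the neutrophil markers had medians of -2.77 and -3.50, and 15 of 18 and 14 of 17 other specific granule genes had a lower mean in DKO.

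Signals of other genes followed each class over the arrays, as a description of 6 points in which the low DKO 1 and DKO 2 carry much of the range. The 5 most similar of 12617 genes outside the 10, by Pearson r with the class mean, were Gk5 (0.992), Ms4a7 (0.989), Snx7 (0.987), Oxct1 (0.986) and Adgre4 (0.981) for the primary class. For the secondary class they were Hacd4 (0.991), Ppbp (0.988), Clstn2 (0.988), Lbp (0.987) and Dusp3 (0.987). For the tertiary class they were Hp (0.997), Acp2 (0.988), Dusp3 (0.987), C5ar1 (0.986) and Pitpnc1 (0.984). Hp, the haptoglobin gene, read 3.41, 2.36 and 122 on the DKO arrays against 709, 295 and 77.2 on the WT arrays. Over the 5 arrays without WT 2 these r values were 0.981 to 0.999. Among the 10 granule genes r over 6 arrays was 0.944 to 0.997 for the 6 pairs within the secondary class, 0.745 to 0.985 for the 6 pairs within the primary class and 0.780 to 0.994 for the 32 pairs between classes.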

How the data were processed

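The authors had summarised each probe set with MAS5, per the submitters' processing notes, and deposited a linear intensity for every array. No version, genome build or detection call is stated. The trimmed mean (2% off each end) was 500.0 throughout, so the arrays had been scaled to 1 target. Intensities were taken to log2 after adding 16, so that differences of dim genes are understated, and arrays were centred on their medians. Of 45037 probe sets, with 64 controls set apart, the test covered 27022 whose mean exceeded percentile 40, among them all 11 of the granule genes. Group was the single term in limma 3.58.1 (R 4.3.3) with a variance trend, two-sided, with Benjamini-Hochberg adjustment over all tested probe sets at 0.05. The fit was tested on simulated data with the same noise on every array, so that check does not cover arrays like WT 2 or DKO 3. A gene was represented by its probe set with the highest mean. Symbols came from the platform annotation and were matched to GRCm38.p6 identifiers for 34741 of 34945 probe sets with 1 symbol. Promoters are RefSeq sequences of GRCm38.p6. Every probe set of the 10 genes was named, and from each further list the 2 genes with the smallest p. Further markers, Vpreb1, Igll1, Ms4a1, Cpa3, Hdc, Tpsb2, Ms4a2, Kit, Csf3r, S100a9, Cxcr2, Itgam, Cd177, C1qa and Lyz2, were named after their values were seen. The genes and lists were chosen with earlier results of these data known. Alternatives were other scalings, pseudocounts of 1 and 64, other filters and variances, array weights, the replicate number as a block, each array left out, WT 2 and DKO 3 left out together, and all probe sets of a gene averaged. Tables and plots were made with Python 3.11.15, pandas 2.3.3 and matplotlib 3.10.9.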

Additional observations from a re-analysis of the deposited data

How the results depend on the processing

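All 10 granule genes kept a lower mean in DKO in each alternative in which they were tested, and 0 of 10 passed in all but 2 of those whose estimates converged. Without both WT 2 and DKO 3 (2 arrays a group), 8 of 10 genes and 1099 probe sets (4.07%) were called. That fit had been planned, and was set aside for a time after its count was seen because DKO 3 stands apart by the genes tested. With array weights 7 of 10 genes and 922 probe sets (3.41%) were called, namely Mpo, Ltf, Lcn2, Ngp, Camp, Mmp8 and Mmp9, with limma adjusted p from 0.0268 to 0.0484. These weights come from the spread of the same 6 arrays, by a gene-by-gene estimator chosen after seeing the data. The planned default estimator stopped before it converged, with 10 of 10 genes and 30.1% of probe sets called. Over the alternatives Ngp ran from -6.56 to -3.07 and Elane from -1.82 to -0.18 on the log2 scale. Of all tested probe sets 2 were called with all 6 arrays. The number was 0 with no centring, with quantile normalization, with a pseudocount of 1 and with the replicate block, 1 with a filter at percentile 60 and with robust variance, 5 without WT 2 under quantile normalization, and 0 to 7 with 1 array left out, the 7 without WT 2. With a pseudocount of 64 it was 3. The correlations of same-numbered arrays, as deviations from their group means, were -0.151, -0.00189 and 0.334, the last being the highest of all DKO and WT pairs. The labels do not say whether the numbers pair the samples. Correlations from 3 arrays a group, with WT 2 among them, cannot decide it. With the replicate block 0 of 10 granule genes passed. The signal of 7 granule genes on DKO 1 and 9 on DKO 2 lay below the array median, which limits the precision of each difference.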
